A study of Arabidopsis thaliana with 8 samples.

Results

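The WIN1/SHINE clade is a group of 3 closely related transcription factor genes of Arabidopsis thaliana, taken here by locus: WIN1 (AT1G15360, also SHN1), SHN2 (AT5G11190) and SHN3 (AT5G25390). They are 3 of the 25665 loci that the array names, each carried by 1 probe in 1 spot, and all 3 passed the filter on dim probes that left 20443 genes for testing. The transgenic plants carried the construct 35S:WIN1:NOS in the Columbia-0 ecotype, that is, WIN1 under a viral promoter active in most cells, followed by a bacterial terminator. The comparison plants are called vector control in the titles and wild type in the genotype field, also in Columbia-0. Both groups were whole seedlings of 2 weeks, grown on agar with 1% sucrose at 23 degrees Celsius in 16 h light and 8 h dark, with 4 samples each. The labels do not give the number of independent transgenic lines. Per the labels a sample was several seedlings from a plate that held many, and separate plates are not mentioned. The p-values below therefore cover the spread between samples only, and that spread may be technical.

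WIN1, SHN2 and SHN3 encode proteins of the AP2/ERF family, which bind DNA through an AP2 domain. The clade is known for turning on genes of cutin, the polyester that forms the frame of the shoot cuticle, and overexpression of any of its members gives leaves a glossy, waxy surface. In wild-type plants SHN1 is known mainly from flowers and young organs, SHN2 from anthers and the opening zones of fruits, and SHN3 from most organs. MIXTA-like MYB factors of the epidermis act upstream of WIN1. The clade's sequences are not used here, so the 3 genes are compared by their signals alone.

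All values come from 1-colour arrays, in which a spot's brightness stands for the abundance of a transcript. The processed signal is the brightness after background subtraction. For comparisons it was put on a log2 scale relative to each array's 75th percentile, which lay between 996.7 and 2490 in 35S:WIN1 and between 1790 and 2354 in the control. A spot was counted as measured where the scanner software marked it well above background, and the lowest such signal, the detection floor, lay between 11.2 and 14.2 on the 8 arrays. Each group filled a slide of its own, scanned by itself, and effects of slide and of genotype therefore cannot be told apart below. Leaf and epidermis markers stood well above background in both groups with 1 exception, LHCB2.1, measured on 3 of 4 35S:WIN1 arrays and lower by a log2 difference of -2.03, and 0 of 3 seed storage genes were measured on any array. The summed level of 3 epidermis markers ran from 5.08 to 5.23 in 35S:WIN1 and from 4.54 to 4.71 in the control on the log2 scale. Of them CER6, a wax elongase gene and the brightest, was higher by 0.82. The others, FDH and ATML1, had log2 differences of 0.11 and 0.26 and were not called (limma, adjusted p = 0.366 and 0.280). Of 3 root markers PYK10 was higher by 0.79. With signals raised to the detection floor MRN1, measured on 4 of 4 35S:WIN1 and 1 of 4 control arrays, was at least 38.6-fold higher. On the same basis AGP30, measured on 0 of 4 35S:WIN1 and 4 of 4 control arrays, was at least 23.0-fold lower. The part of tissue makeup in the results below was not tested.

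The first question was how strongly the transgene raised WIN1 and how evenly it did so. WIN1 was high on all 4 transgenic arrays and at the edge of detection in the control, and no array of one group came near the other. The processed signal was 49023, 55243, 51341 and 35917 on 35S:WIN1 replicates 1 to 4. On vector control replicates 1 to 4 it was 3.26, 31.3, 3.51 and 7.28. It was measured above background on 4 of 4 35S:WIN1 arrays and on 1 of 4 control arrays, replicate 2. On the scale relative to the 75th percentile WIN1 averaged 4.85 ± 0.83 in 35S:WIN1 and -8.21 ± 1.48 in the control (SD, n = 4 each). By limma the log2 difference was 13.06 (SE 0.73, adjusted p = 2.88e-05), with the value of vector control replicate 1 a software substitute near the spot's error. WIN1 was at least 3836-fold higher once signals under an array's detection floor were set to that floor. An exact two-sided permutation test over the 70 splits of the arrays gave p = 0.0286, the smallest it can give.

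The transgenic WIN1 spots were so bright that the scanner software took all 4 of them from its low-gain scan and scaled them up, and 0 were saturated. In the control the endogenous gene was barely seen. The raw median brightness of its spot, before background subtraction, was 100.5, 106.5, 101 and 96 on vector control replicates 1 to 4. The median of the negative control spots was 91, 87, 89 and 88. On replicates 2 and 3 the WIN1 spot lay above every negative control, on replicate 1 above all but 2, and on replicate 4 it was matched or exceeded by 30 of them. The probe reads transcripts of the transgene and of the endogenous gene as a single signal.

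**Figure D1:**
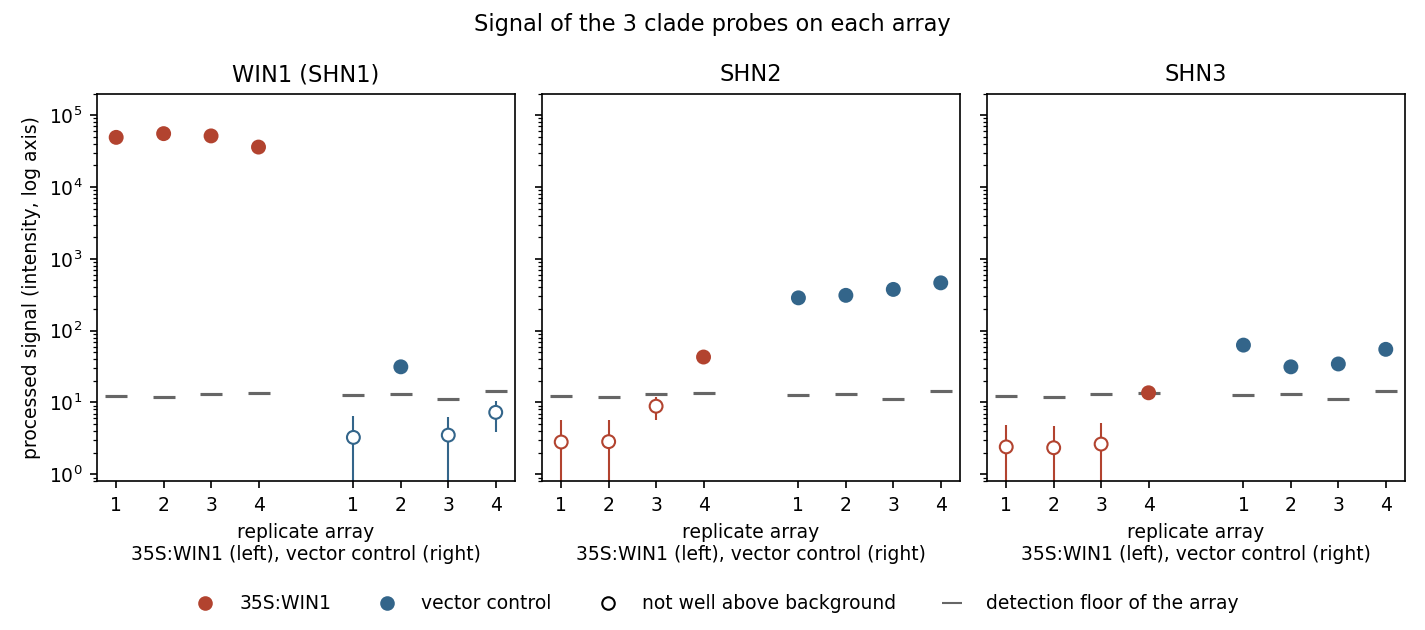
Processed signal (log axis) of the WIN1, SHN2 and SHN3 probes on each array, 35S:WIN1 left and vector control right. Bars show the software's error of each spot, open points are not well above background and dashes mark the detection floor. WIN1 lies at 35917 or more on every 35S:WIN1 array, while SHN2 and SHN3 are filled points there on replicate 4 only.

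How even the transgene looked depended on the yardstick. Relative to the 75th percentile WIN1 stood at 5.62, 5.44, 4.50 and 3.85 on 35S:WIN1 replicates 1 to 4, a range of 3.41-fold. The unscaled signals of the same spots spanned 1.54-fold, with replicate 4 lowest. Relative to the median of 8 spike-in RNAs, foreign transcripts added to each sample, the 4 values were 1.24, 1.16, 0.68 and 1.08, a range of 1.48-fold. The SD between the 4 arrays was 0.83 relative to the 75th percentile, 0.27 unscaled and 0.25 relative to the spike-ins. The 75th percentile itself was 996.7, 1269, 2273 and 2490 on these arrays, so WIN1 was relatively highest where the array as a whole was dimmest. The part of array brightness in this spread was not tested.

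**Figure D2:**
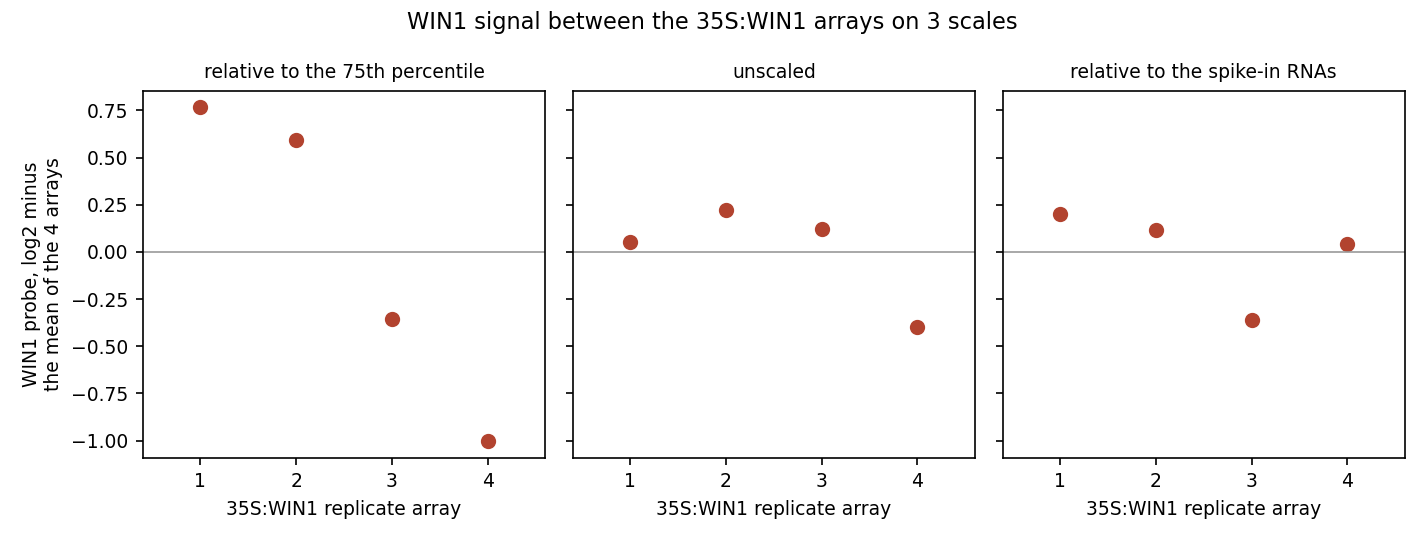
WIN1 signal on the 4 35S:WIN1 arrays as log2 minus the mean of these arrays, relative to the 75th percentile (left), unscaled (middle) and relative to the spike-in RNAs (right). The points spread with an SD of 0.83 on the left, against 0.27 and 0.25 on the other 2 scales.

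The second question was what happened to the other members of the clade. SHN2 and SHN3 were both lower in 35S:WIN1, and on 3 of 4 arrays of that line their probes were not well above background. Their groups did not overlap. Each clade member passed the filter on dim probes with the 4 arrays of its brighter group and 1 of the other, so the brighter group alone would have let it through, and the count of calls among them supports nothing. All 3 clade members were called at an adjusted p under 0.05, 1 higher and 2 lower, where 35.3% of all genes tested were called, 15.1% as higher and 20.2% as lower. Groups did not overlap for 35.3% of all genes.

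SHN2 gave a processed signal of 2.81, 2.85, 8.86 and 42.9 on 35S:WIN1 replicates 1 to 4. On vector control replicates 1 to 4 it gave 285.8, 309.8, 374.5 and 462.3. The lowest control signal was several times the highest transgenic one, and the control arrays were close to each other. It was measured above background on 1 of 4 35S:WIN1 arrays and on 4 of 4 control arrays. Relative to the 75th percentile SHN2 averaged -7.78 ± 1.32 in 35S:WIN1 and -2.59 ± 0.18 in the control (SD, n = 4 each). By limma the log2 difference was -5.20 (SE 0.58, adjusted p = 0.000528), and it rests in part on values below background in 35S:WIN1. On replicates 1 and 2 of that line these were software substitutes near the spot's error. With values raised to the detection floor SHN2 was at least 16.1-fold lower. The exact permutation test gave p = 0.0286, the smallest it can give.

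SHN3 was dim in both groups. Its processed signal was 2.41, 2.34, 2.63 and 13.6 on 35S:WIN1 replicates 1 to 4. It was 62.8, 31.3, 34.3 and 54.9 on vector control replicates 1 to 4. It was measured above background on 1 of 4 35S:WIN1 arrays, where it lay barely over the floor of 13.3, and on 4 of 4 control arrays. SHN3 averaged -8.76 ± 0.94 in 35S:WIN1 and -5.59 ± 0.58 in the control (SD, n = 4 each), and its log2 difference was -3.17 (SE 0.48, limma, adjusted p = 0.00209). On 35S:WIN1 replicates 1, 2 and 3 the SHN3 value was a software substitute near the spot's error. The SD in 35S:WIN1, the SE and the adjusted p therefore do not measure the spread of the transcript alone. With values raised to the detection floor SHN3 was at least 2.68-fold lower. Its call was lost under normexp background correction with an offset of 50 (log2 difference -0.10, adjusted p = 0.766) and when the negative controls' median was subtracted from the raw signal and 50 added (log2 difference -0.56, adjusted p = 0.142, a setting chosen after seeing the data). Over all alternatives its adjusted p ran from 3.17e-16 to 0.766. The lowest came from scaling to spike-in RNAs, where limma gave all 3 clade members the same SE of 0.55. That value therefore does not measure the spread of SHN3 itself. The scanner software's own background-subtracted control signals for SHN3 were 74.8, 37.7, 41.2 and 62.7, while normexp worked on the median signals. The part of the offset in the lost calls was not tested.

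The raw brightness gives a view of the 2 dim genes that does not pass through the scanner software's background subtraction. SHN3 spots measured 90, 87, 89.5 and 104 on 35S:WIN1 replicates 1 to 4, against 171, 127, 133 and 155.5 on the control arrays. Negative control spots had medians of 84.5 to 87 on the 35S:WIN1 arrays and 87 to 91 on the control arrays. On 35S:WIN1 replicates 1, 2 and 3 the SHN3 spot was matched or exceeded by 37, 49 and 20 of the negative controls, and on replicate 4 and all control arrays by 0. SHN2 spots measured 94, 90, 90.5 and 133 in 35S:WIN1, against 373.5, 387.5, 475 and 546 in the control. They were matched or exceeded by 1, 16 and 16 negative controls on 35S:WIN1 replicates 1, 2 and 3, and by 0 on replicate 4 and all control arrays. The raw signal above the negative controls' median averaged 16.3 ± 21.2 for SHN2 in 35S:WIN1 and 356.8 ± 81.2 in the control (SD, n = 4 each). For SHN3 it averaged 7.0 ± 8.01 in 35S:WIN1 and 57.9 ± 19.1 in the control (SD, n = 4 each). The exact permutation test gave p = 0.0286 for each. These raw values are not scaled for the brightness of the arrays.

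**Figure D3:**
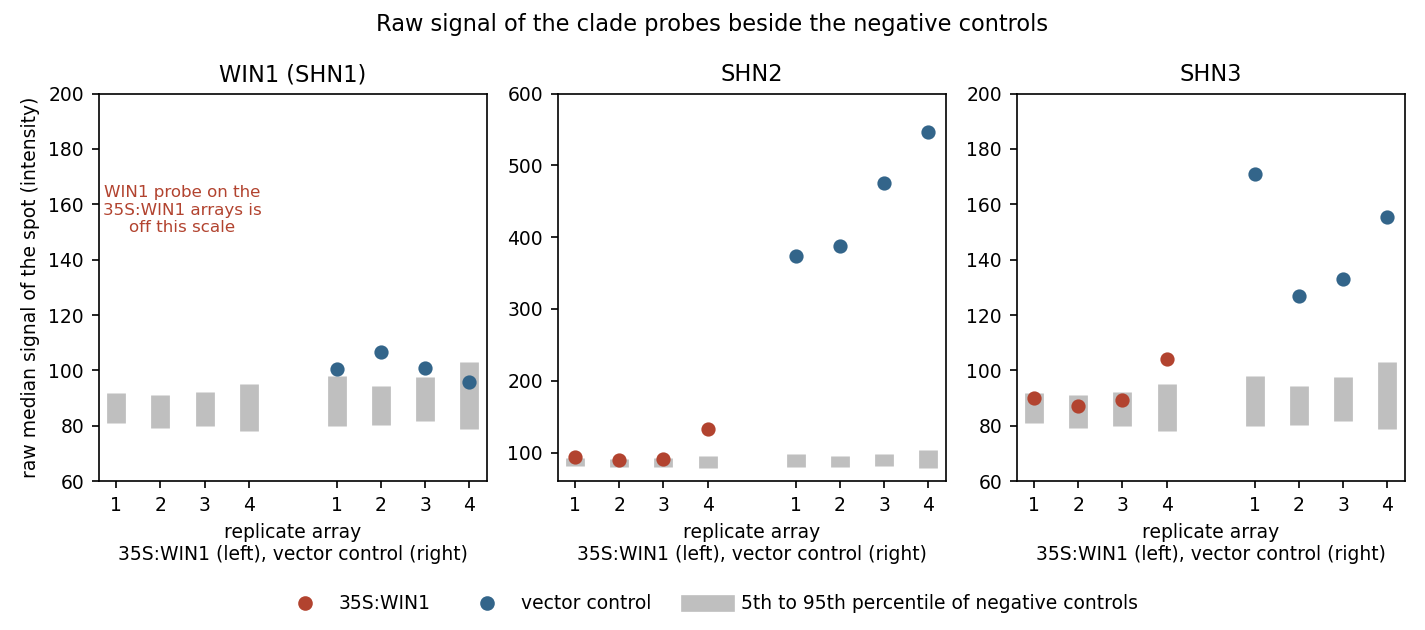
Raw median signal of the clade probes on each array, 35S:WIN1 left and vector control right, with grey bars for the 5th to 95th percentile of the negative control spots of that array. SHN3 lies at 87 to 104 in 35S:WIN1 and at 127 to 171 in the control, and WIN1 in the control lies at 96 to 106.5, beside or just above the grey bars.

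SHN2 and SHN3 were measured above background on the 35S:WIN1 replicate 4 array and on no other array of that line. Its WIN1 signal was the lowest of the 4, unscaled and relative to the 75th percentile, but not relative to the spike-ins, where replicate 3 was lowest. On it SHN2 was 9.68-fold and SHN3 3.80-fold below their control means, relative to the 75th percentile. It was also the brightest of the 4 arrays. Without it the log2 differences were 13.39 for WIN1, -5.84 for SHN2 and -3.59 for SHN3, and all 3 passed (limma, adjusted p = 6.14e-05, 1.04e-05 and 0.000463).

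Flower genes moved with the same array. Of 5 floral MADS-box genes PI and SEP3 were well above background on all 8 arrays of these seedlings. AP1 was so on 2 of 4 35S:WIN1 and 4 of 4 control arrays. AG and AP3 were so on 1 of 4 in each group, replicate 4 in both. AP1, a floral identity gene, gave a signal of 2.86, 2.83, 24.7 and 134.6 on 35S:WIN1 replicates 1 to 4, against 86.9, 21.2, 153.8 and 62.8 in the control. SEP3, a partner of the floral homeotic factors, gave 160.5, 180.7, 273.2 and 960.4 in 35S:WIN1, against 615.5, 569.4, 442.0 and 603.9 in the control. On 35S:WIN1 replicate 4 all 5 flower genes were at their highest for that line, AP1 lay within its control range and SEP3 above it. SHN2 stood at 42.9 on that array, against 285.8 or more in the control. It is a single array, the brightest of its line, and was looked at after its values were seen. Vector control replicate 4, the brightest control array, also held the highest AG and AP3 signals of its group (30.7 and 21.6). PI was at its lowest there (346.6), and AP1 and SEP3 were at neither end of their control range. The summed level of the 5 genes relative to the 75th percentile ran from -1.81 to 0.05 in 35S:WIN1 and from -1.14 to 0.24 in the control on the log2 scale, and 0 of the 3 tested were called. The part of floral tissue in the SHN2 and SHN3 differences was not tested. In whole seedlings fewer cells of a type and less RNA per cell cannot be told apart.

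**Figure D4:**
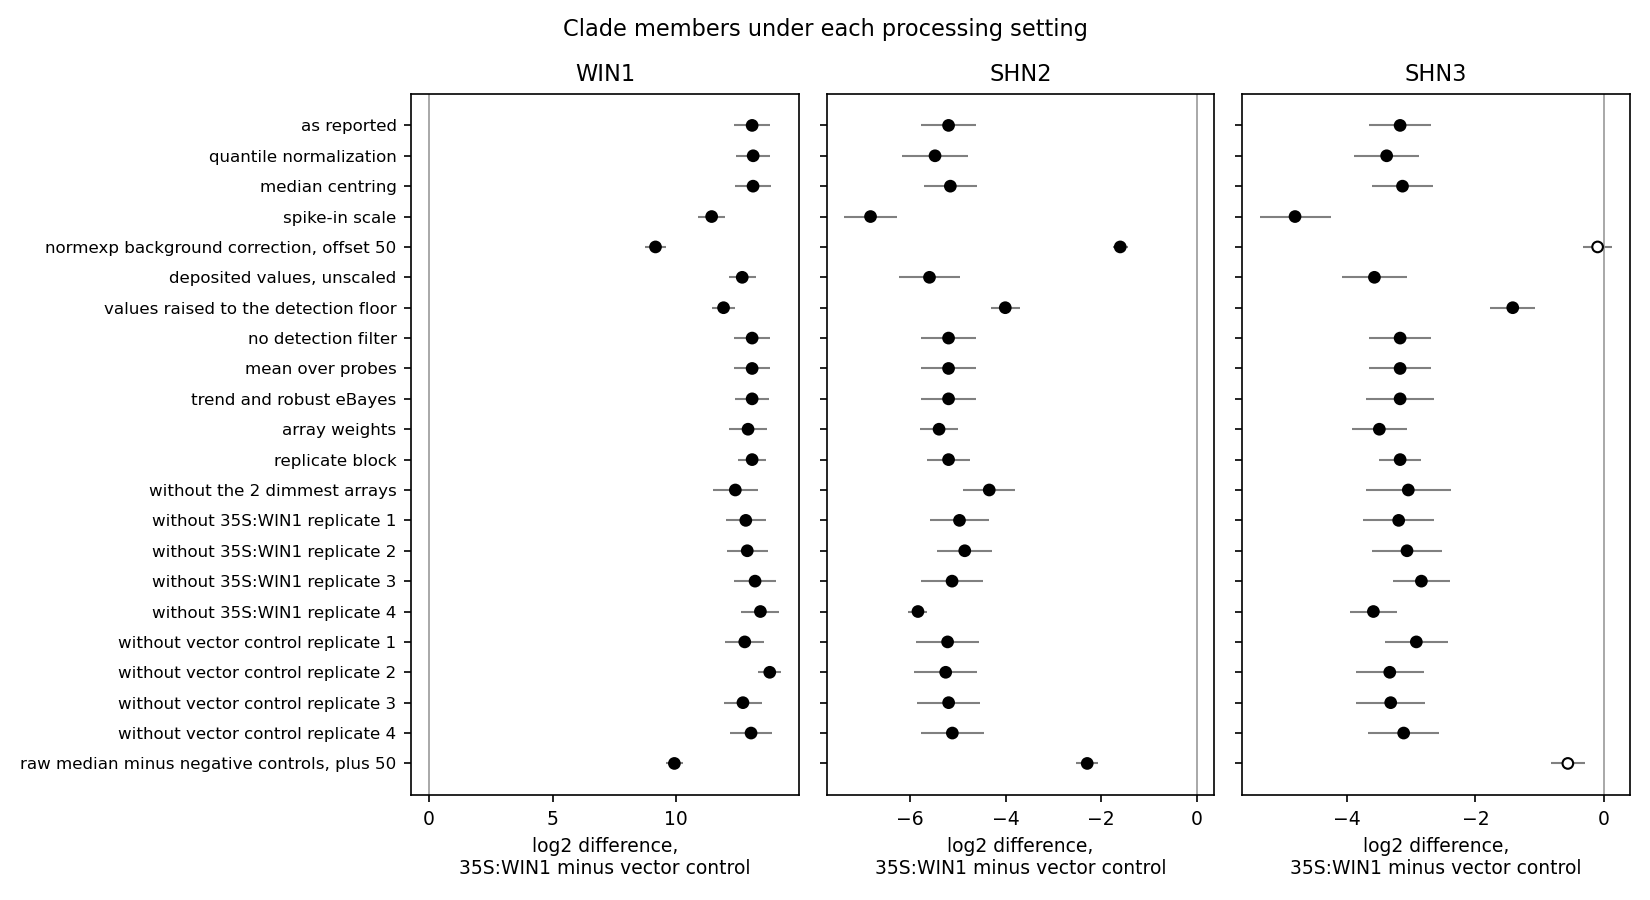
Log2 difference (35S:WIN1 minus vector control, bars: SE) of WIN1, SHN2 and SHN3 under each processing setting. Filled points passed an adjusted p of 0.05. WIN1 runs from 9.16 to 13.77 and SHN2 from -6.83 to -1.60, while SHN3 has 2 open points near 0.

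The genes next to the clade members on the chromosomes had log2 differences between -0.53 and 3.1. WIN1 lies on chromosome 1 and SHN2 and SHN3 on chromosome 5. Of the 12 nearest tested genes, 2 on either side of each member, 5 were called, where 35.3% of all genes were. Beside WIN1, GLYI4, named as a glyoxalase I gene, was higher by 1.86 (SE 0.31, limma, adjusted p = 0.00313), while AT1G15350 had a log2 difference of 0.59 (SE 0.19) and AT1G15370 of -0.53 (SE 0.15), against 13.06 for WIN1 between them. UAP56a and UAP56b, RNA helicase genes on either side of SHN2, had log2 differences of 0.02 (SE 0.08) and -0.17 (SE 0.09). GLR2.5, a glutamate receptor-like gene further on, was higher by 3.1 (SE 0.46, limma, adjusted p = 0.00187), with 2 of 4 control arrays above background. The cyclin gene CYCA2;1 beside SHN3 had a log2 difference of -0.08 (SE 0.24), and AT5G25440 on its other side was higher by 1.32 (SE 0.25, limma, adjusted p = 0.00492).

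Some genes followed the clade members closely over the 8 arrays. The likeness is Pearson's r of log2 values, with the members raised to the detection floor, among 18764 genes above background on every array. For WIN1 the 3 most alike were OCT6, an organic cation transporter gene (r = 0.999), GSTU4, a glutathione transferase gene (r = 0.999), and ERF1, a target of ethylene and jasmonate signalling in defence (r = 0.998). Their log2 differences were 3.74, 5.16 and 6.83. For SHN2 they were CYP76C1, a cytochrome P450 gene, AT3G26510 and AT3G45260 (r = 0.991, 0.99 and 0.99), with log2 differences of -0.93, -0.88 and -0.96. For SHN3 they were AT1G80700, AT1G52630 and AT5G16030 (r = 0.987, 0.977 and 0.970), with log2 differences of -0.22, -0.25 and -0.88. With 2 groups of 4 arrays such an r mostly records the group difference, so deviations from the group means were compared too. EHB1, AT5G58375 and AT2G03350 were then most like WIN1 (r = 0.986, 0.984 and 0.980), with log2 differences of 0.44, 0.40 and -0.22. CH1, PRX52 and EDL3 were most like SHN2 (r = 0.955, 0.954 and 0.950), with log2 differences of -0.82, 2.83 and 1.54. DAA1, AT5G22320 and RPN5B were most like SHN3 (r = 0.982, 0.973 and 0.968), with log2 differences of 1.55, 0.05 and 0.02. PRX52, EDL3 and DAA1 thus differed between the groups in the other direction than their clade member. As the highest of 18764 values over 8 arrays, r of this size can come from the picking alone. Where a member sits at the floor its value moves with the array's brightness, and these r share that.

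The third question was how genes of the cuticle stood beside the clade. Of 18 cuticle genes taken as downstream of the clade, 9 were higher and 1 lower, 55.6% called against 35.3% of all genes. Their median log2 difference was 1.17 against -0.04 over all genes. The list was chosen with earlier results of these data known, so its share called and its median support nothing by themselves. Of the 9 higher, 6 (LACS2, GPAT4, GPAT6, ABCG32, KCS1 and CER2) fell below 0 when arrays were scaled to the spike-ins, which shifts every gene by -1.63, and CYP77A6, CYP86A4 and CUS2 stayed above. On that scale 3 of the 18 were called higher and 7 lower, with a median of -0.47 against -1.68 over all genes. The limma fit there gave the 3 clade members the same SE, so its calls may not reflect each gene's own spread. The list's median relative to the control mean was 0.93, 1.19, 0.81 and 0.97 on 35S:WIN1 replicates 1 to 4, and ran from -0.23 to 0.16 on the control arrays.

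Among the cutin enzymes, CYP77A6, an in-chain hydroxylase, stood at 1.34, 2.03, 2.46 and 2.25 on 35S:WIN1 replicates 1 to 4, against -1.15, -1.70, -0.97 and -1.05 in the control. Its log2 difference of 3.24 (SE 0.26) was the largest of the list. CYP86A4, an omega-hydroxylase, stood at 2.89, 3.20, 3.13 and 2.64, against -0.09, -0.52, 0.15 and 0.51, and rose by 2.95 (SE 0.23). The groups of both genes lay far apart, and relative to the 75th percentile replicate 4 was the lowest array of the line for CYP86A4 but not for CYP77A6. GPAT6, an acyltransferase best known from flower cutin, stood at 1.26, 1.38, 1.81 and 2.02 in 35S:WIN1, against 0.02, -0.24, 0.50 and 0.43, and rose by 1.44 (SE 0.23, limma, adjusted p = 0.00259). CYP86A7, a further omega-hydroxylase, was uneven in the transgenic line at -2.08, -1.03, 0.36 and 0.63, against -1.93, -2.79, -2.06 and -2.04, and did not pass (log2 difference 1.67, SE 0.57, adjusted p = 0.0517). GPAT8, a close relative of GPAT4, had a log2 difference of 0.17 (SE 0.31) and CYP86A8 of -0.28 (SE 0.14), and neither passed. GPAT8 had no value on 35S:WIN1 replicate 4.

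Other genes of the list assemble cutin or carry its parts. CUS2, a cutin synthase gene, stood at -0.29, 1.06, 2.32 and 2.24 in 35S:WIN1, against -1.16, -2.16, -1.09 and -1.30, and rose by 2.76 (SE 0.57, limma, adjusted p = 0.00762). Its 2 dim arrays, replicates 1 and 2, were the lower ones of the line. HTH, an oxidoreductase-like gene of organ separation, stood at 0.76, 1.43, 1.39 and 1.46, against 2.21, 1.78, 2.38 and 2.28, and fell by 0.90 (SE 0.20, limma, adjusted p = 0.00970). The transporter gene ABCG32 rose by 0.65 (SE 0.13). DCR, BDG1, BDG3 and ABCG11 had log2 differences from -0.29 to 0.36 and did not pass, BDG3 without a value on vector control replicate 4. Of the wax genes in the list KCS1, an elongase, rose by 1.28 (SE 0.20) and CER2, an elongation cofactor, by 1.25 (SE 0.21). CER1, of alkane formation, stood at 4.76, 4.43, 2.85 and 2.31 in 35S:WIN1, against 2.67, 1.82, 2.91 and 2.61, so that the groups overlapped and it did not pass (adjusted p = 0.161).

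**Figure D5:**
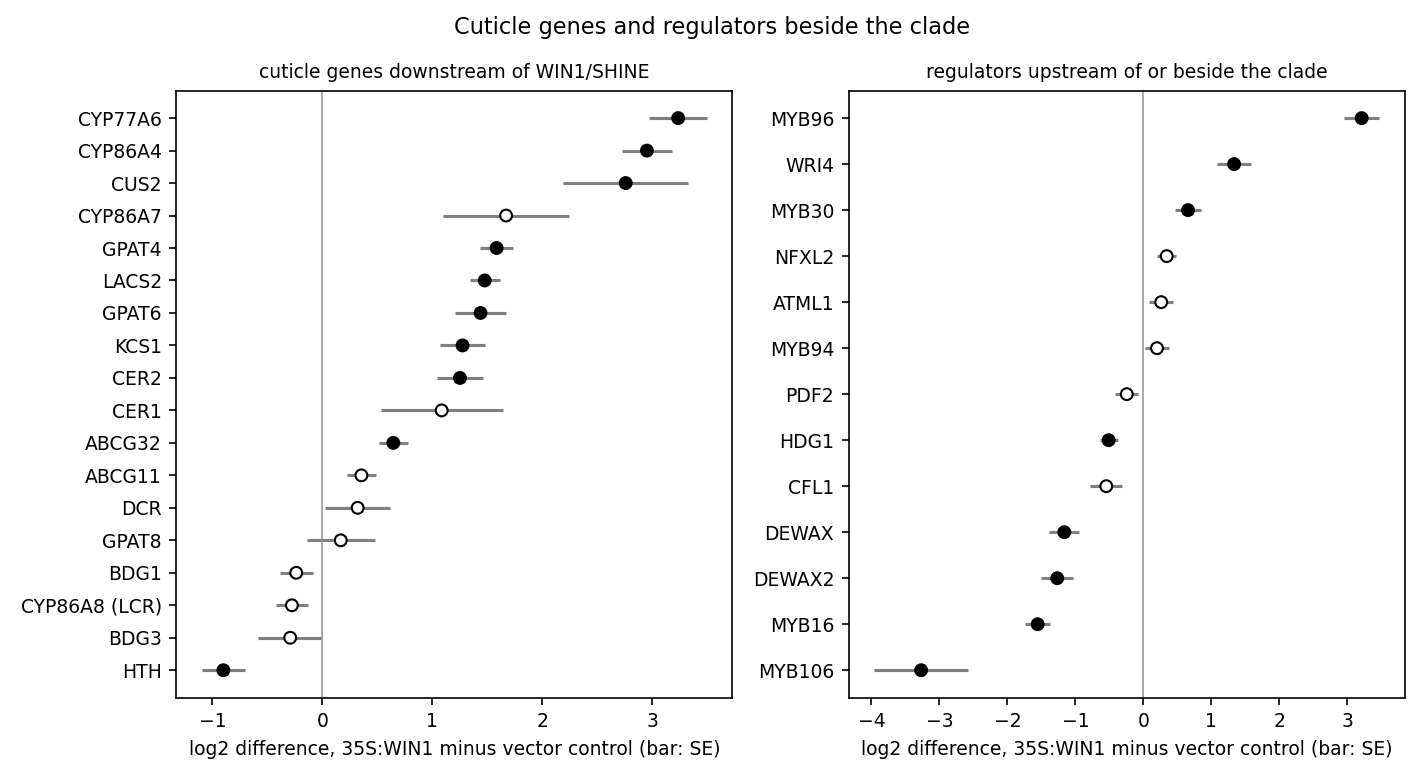
Log2 difference (35S:WIN1 minus vector control, bars: SE) of 18 cuticle genes taken as downstream of the clade (left) and 13 regulators (right). Filled points passed an adjusted p of 0.05. CYP77A6 at 3.24 and MYB96 at 3.21 are highest, and MYB106 at -3.27 is lowest.

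The last question was how regulators known to act upstream of the clade, or on the same genes, stood beside it. Of 13 of them 3 were higher and 5 lower, 61.5% called against 35.3% of all genes, with a median log2 difference of -0.24 against -0.04. These regulators too were chosen with earlier results of these data known, so their share called supports nothing by itself. On the spike-in scale 1 was called higher and 10 lower, with a median of -1.88 against -1.68 over all genes. The MIXTA-like factors, known activators of WIN1 and of cuticle genes, were among those that fell. MYB106 stood at -5.98, -5.12, -3.0 and -2.76 on 35S:WIN1 replicates 1 to 4, against -0.84, -1.36, -0.69 and -0.89 in the control, and fell by 3.27 (SE 0.69, limma, adjusted p = 0.00840). It was lowest on the 2 dimmest arrays, replicates 1 and 2, and its signal of 15.8 on replicate 1 was near that array's floor of 12.1. Over 22 alternatives its log2 difference ran from -4.90 to -1.93, and its call was kept under all 22. MYB16 stood at -0.19, 0.12, -0.05 and 0.51, against 1.89, 1.32, 1.81 and 1.60, and fell by 1.55 (SE 0.19). HDG1, an epidermal homeodomain factor, fell by 0.51 (SE 0.13), a call lost without 35S:WIN1 replicate 1, vector control replicate 1 or 3 or the 2 dimmest arrays and on the deposited values (highest adjusted p = 0.143).

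Both ERF-type repressors of wax genes fell as well. DEWAX stood at 2.60, 2.66, 2.00 and 2.34 in 35S:WIN1, against 4.0, 3.73, 3.17 and 3.34, and fell by 1.16 (SE 0.22, limma, adjusted p = 0.00531). DEWAX2 stood at 1.03, 1.37, 0.95 and 1.71, against 2.99, 2.67, 2.28 and 2.18, and fell by 1.27 (SE 0.23, adjusted p = 0.00461). The activators of wax genes that rose were MYB96, WRI4 and MYB30, of which WRI4 and MYB30 lay below 0 on the spike-in scale. MYB96 stood at 3.21, 2.68, 2.62 and 1.81, against -0.73, -0.54, -0.69 and -0.55. WRI4 stood at 2.85, 2.75, 2.54 and 1.74, against 0.87, 1.14, 1.38 and 1.15, and rose by 1.33 (SE 0.24, adjusted p = 0.00468). The rise of MYB30 by 0.66 (SE 0.20) lost its call with a replicate block, on the deposited values, without the 2 dimmest arrays and when any of 5 single arrays was left out, namely vector control replicates 1, 2 and 3 and 35S:WIN1 replicates 1 and 2 (adjusted p up to 0.623 over all settings). NFXL2, a repressor known to bind SHN promoters, had a log2 difference of 0.34 (SE 0.14) and did not pass (adjusted p = 0.0859). CFL1, ATML1, PDF2 and MYB94 did not pass either, with log2 differences from -0.55 to 0.26.

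Beside these comparisons stand 8 transcripts commonly used as references. Of these 0 were called by limma, and their median log2 difference was -0.01, near the -0.04 of all genes. On the spike-in scale it was -1.64, near the -1.68 of all genes. The reference transcripts thus followed all genes on either scale and cannot show which scale is right. SHN2 and SHN3 stood at -6.83 and -4.81 on that scale, below the median of all genes on both, and WIN1 at 11.43.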

How the data were processed

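Total RNA of 8 samples (1 µg each, per the labels' protocols) was labelled with Cy3 and hybridised to 1-colour Agilent arrays of 39102 spots. The submitters' processing notes name Agilent Feature Extraction, version 9.1.3.1, for the scanner files, whose deposited processed signal is an intensity after detrending and background subtraction, with no scaling between arrays. Spots not significantly above background hold a small substitute near their error. The deposited table of the series holds the same intensity divided by a constant per slide (1341 for 35S:WIN1, 1312 for the control), to within 0.05% for 99.9987% of values. Its scale is therefore linear, with no centring, and its column medians lie between 0.0464 and 0.125 for 35S:WIN1 and between 0.0853 and 0.126 for the control.

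Groups came from sample titles. Log2 values were taken relative to each array's 75th percentile, spots marked as outliers were dropped, repeated spots of a probe were averaged, and a locus was its brightest probe, kept where 4 or more of the 8 arrays had it well above background. Genes were tested with limma 3.58.1 in R 4.3.3 (two-sided, Benjamini-Hochberg over 20443 genes, threshold 0.05), after a check on simulated data. Single values had an exact permutation test. RefSeq names (TAIR10.1) matched 20326 genes. Named were the clade, list members by size, the most alike genes and the nearest neighbours. Flower markers were described by array after their values were seen. Members and lists were chosen with earlier results of these data known. The scanner files hold no mean signal, so normexp used the median signal. Precision is limited by the number of arrays. Alternatives covered scaling, background correction, filters, variance models, a replicate block and left-out arrays.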

Additional observations from a re-analysis of the deposited data

Results flagged for a closer look

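Among the 34 clade, cuticle and regulator genes, 2 of 68 groups of arrays held a value far from the others by Dixon's test, where chance marks about 1 group in 20. GPAT8 in 35S:WIN1 and BDG3 in the control lacked a value on replicate 4. HTH stood at 0.76 on 35S:WIN1 replicate 1, relative to the 75th percentile on the log2 scale, against 1.39 to 1.46 on the other 35S:WIN1 arrays. CYP86A7 stood at -2.79 on vector control replicate 2, against -2.06 to -1.93 on the other control arrays. None of the 3 clade members was marked in either group.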

How the results depend on the processing

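WIN1 and SHN2 kept their direction and their call under all 21 alternatives that gave them a value, from 9.16 to 13.77 for WIN1 (highest adjusted p = 0.000925) and from -6.83 to -1.60 for SHN2 (highest adjusted p = 0.00456). SHN3 kept its direction under 21 and its call under 19, and lost it under normexp (-0.10) and on the raw signal above the negative controls (-0.56). None of the 3 is well above background on all 8 arrays, so that filter gave them no value. Leaving out single arrays gave 12.69 to 13.77 for WIN1, -5.84 to -4.86 for SHN2 and -3.59 to -2.84 for SHN3. The count of all genes called, 7216, was 5255 to 8335 without single arrays, 4318 without the 2 dimmest arrays, 17562 on the spike-in scale (402 higher, 17160 lower) and 2993 on the deposited values (905 higher, 2088 lower). Of the cuticle genes 10 were called, 10 to 11 without single arrays, 4 on the deposited values and 10 on the spike-in scale (3 higher, 7 lower). Of the regulators 8 were called, 6 to 9 without single arrays, 5 on the deposited values and 11 on the spike-in scale (1 higher, 10 lower). The causes of these shifts were not tested. Scaling to the spike-ins gave the 3 clade members the same SE of 0.55, so counts on that scale may not reflect each gene's own spread. No label says whether the replicate numbers mark a shared batch. Deviations of same-numbered arrays correlated at -0.08, 0.11, 0.19 and 0.04, and only replicate 3 matched its own number best. Such correlations cannot decide the question, as a batch need not show in them. The 75th percentile rose in order from replicate 1 to replicate 4 in both groups. With a replicate block adjusted p was 0.000905 for WIN1, 0.00303 for SHN2 and 0.00434 for SHN3. Signal over background limits WIN1 in the control and SHN2 and SHN3 in 35S:WIN1 to bounds on most arrays.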
